A study of Caenorhabditis elegans with 22 samples.

Results

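The 8 genes described here mark or control the mitochondrial unfolded protein response of Caenorhabditis elegans: hsp-6, hsp-60, dnj-10, clpp-1, atfs-1, ubl-5, dve-1 and tbb-6. The genes were chosen by name from a count table of 45461 genes, and all 8 of 8 were found and tested. 7 were listed under these names, and atfs-1 was listed under its sequence name ZC376.7. RNA of whole adult worms was sequenced in 22 libraries that formed 8 groups. Worms lived on NGM agar plates with 100 nM rotenone or on control plates with its solvent, DMSO. They were sampled as adults on day 1, 5, 10 or 20 counted from the L4 larva. Day 1, 5 and 10 groups have 3 libraries each and the day 20 groups have 2. The strain was not given in the labels, and no allele or transgene was named. The labels do not say if the replicates were grown apart, and the spread behind the p-values may therefore be technical.

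Mitochondria import most of their proteins unfolded, and chaperones of the matrix fold them. When import or folding fails, the transcription factor ATFS-1, which is otherwise imported and degraded, enters the nucleus and raises chaperone genes such as hsp-6 and hsp-60, whose reporters are the usual readout in worms. UBL-5 and DVE-1 act with it in the nucleus, and the matrix protease CLPP-1 acts upstream. Rotenone inhibits complex I of the respiratory chain. A separate route through the kinases DLK-1, SEK-3 and PMK-3 raises the beta-tubulin gene tbb-6 after mitochondrial damage in worms.

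Libraries held 25769159 to 69961601 counts, and between 127 and 59559 of them fell on each of these genes per library. Values are CPM (counts scaled to 1e+06 per library) over tested genes after TMM scaling, or CPM per kilobase of exon where genes are compared with each other. DMSO day 10 replicate 1 stood apart: its log2 values deviated from its group mean by a root mean square of 0.501, against at most 0.321 in the other libraries. The share of rrn-3.1, a ribosomal RNA gene, was 17.56% in rotenone day 5 replicate 2. Fold changes of rotenone against DMSO at day 1 followed exonic length (Spearman's rho -0.54 over 16555 genes, which are not independent replicates). The summed CPM of 6 muscle markers went from 4159 to 4888 in DMSO day 1 libraries to 255.5 to 359 at day 20, that of 6 hypodermis markers from 4659 to 5056 to 71.2 to 75.8, and that of 6 intestine markers from 3303 to 3525 to 405 to 440.2. Sums of 6 neuron markers went from 239 to 256 to 408 to 453, those of 6 germline markers from 3014 to 3173 to 2207 to 2231, and none of these markers was at 0. Those of 6 sperm markers were low and went from 8.385 to 10.39 to 3.222 to 3.308. Up to 3 sperm markers were at 0 in a group, in rotenone at day 5. The sums moved in the same directions in rotenone, and the part of this change of tissue make-up in the age results below was not tested. Between treatments, rotenone sums lay below DMSO without overlap at day 1 for intestine (2695 to 3056 against 3303 to 3525), germline (2693 to 2838 against 3014 to 3173) and muscle (3834 to 4121 against 4159 to 4888). At day 20 rotenone sums were above DMSO for intestine (474 to 526 against 405 to 440.2) and germline (2411 to 2565 against 2207 to 2231). Sperm sums were below DMSO at day 20 (2.93 to 3.037 against 3.222 to 3.308). Hypodermis sums were above DMSO at day 5 (651 to 747.5 against 564.5 to 602) and day 10 (177 to 190.2 against 147 to 154). The part of these differences in the rotenone results was not tested. In bulk RNA of whole animals, fewer cells of a type and less RNA per cell cannot be told apart.

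Levels of the 8 genes differed widely per kilobase in young worms. In DMSO at day 1 the mean level in CPM per kilobase was 269 ± 14.9 for hsp-60 and 254 ± 19.5 for hsp-6 (SD, n = 3). These were the only members above 100 CPM per kilobase, and they lay within 1 SD of each other. Next came ubl-5 at 70.3 ± 12.7, atfs-1 at 57.4 ± 4.73, dnj-10 at 43.7 ± 3.31 and clpp-1 at 38.3 ± 2.05 CPM per kilobase. The 2 lowest were dve-1 at 5.39 ± 0.327 and tbb-6 at 2.70 ± 0.0355 CPM per kilobase. At day 20 hsp-6 led with 272 ± 63.5, hsp-60 had 76.0 ± 13.6 and tbb-6 had 54.95 ± 6.36 CPM per kilobase (SD, n = 2), so that tbb-6 stood beside atfs-1 at 54.7 ± 1.91.

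**Figure D1:**
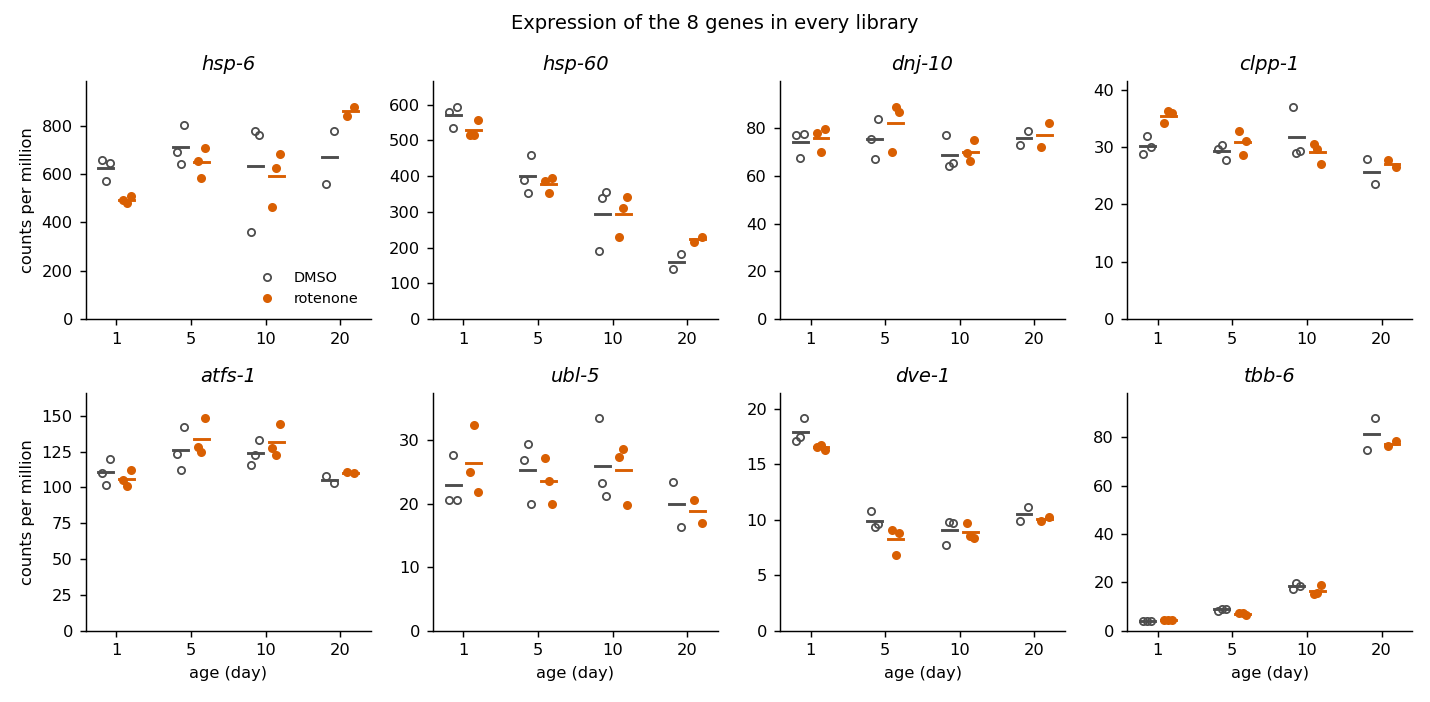
CPM of each gene (vertical axis, from 0, different in each panel) by age (horizontal axis, the 4 ages at equal spacing), with a point per library, open for DMSO and filled for rotenone, and a line at the group mean. Levels of tbb-6 rise from 3.94 to 4.42 CPM at day 1 to 74.7 to 88.0 CPM at day 20 and those of hsp-60 go down with age in both treatments, while DMSO and rotenone points mostly lie together.

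Rotenone and DMSO groups of the same age were compared to ask whether the inhibitor moved these genes. No member passed at any age: 0 of 8 were called higher or lower at days 1, 5, 10 and 20 or in the average over the 4 ages by edgeR's quasi-likelihood test (adjusted p under 0.05 over all 16822 tested genes), and DESeq2 also called 0. At an unadjusted p under 0.05 there were 1, 2, 0 and 1 members at days 1, 5, 10 and 20 and 1 in the average. In the reported fit few genes of the whole table were called. At day 1 the shares called higher and lower were 0.375% and 0.273% of tested genes, and at day 5 they were 0.107% and 0.773%. They were 0.452% and 0.91% at day 10, 0.0594% and 0.00594% at day 20, and 0.571% and 1.59% in the average. The size and leading direction of the day 1 count depended on the setting: 63 genes were higher and 46 lower in the reported fit, 643 and 1432 with the replicate block, and 806 and 2276 without DMSO day 10 replicate 1. The median log2 fold change of the 8 members was -0.014, -0.096, -0.038 and 0.044 at days 1, 5, 10 and 20, beside 0.038, -0.0094, -0.046 and 0.021 for all tested genes. Statements below that groups did not overlap only describe the libraries, since the share of all genes without overlap was not counted. With 2 or 3 libraries per group, groups can lie apart without an effect.

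At day 1 hsp-6, the matrix HSP70, had 659.6, 570 and 644 CPM in DMSO and 493, 479 and 511 CPM in rotenone. Each rotenone library lay below each DMSO library. The log2 fold change was -0.34 (SE 0.21, edgeR adjusted p = 0.355), which did not pass. A fit of only these 2 groups gave -0.34 with an adjusted p of 0.00105, and it called 33.3% of the genes it tested. Leaving out DMSO day 10 replicate 1, which is in neither group, gave -0.37 with an adjusted p of 0.0476, and that fit called 18.4% of genes. With the trend on exonic length removed the value was -0.16 (adjusted p = 0.6305), and over its alternatives the adjusted p ran from 0.00105 to 0.631. clpp-1, the proteolytic subunit of the matrix ClpP protease, had 28.8, 32.0 and 30.0 CPM in DMSO and 34.1, 36.4 and 36.0 CPM in rotenone at day 1. The groups did not overlap, with rotenone higher, and the log2 fold change of 0.23 (SE 0.098) had an edgeR adjusted p of 0.231. It passed in the fit of only these groups (0.23, adjusted p = 0.0120), and removing the length trend left 0.053 (adjusted p = 0.753).

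tbb-6 gave the smallest p among the members in any rotenone comparison. At day 5 it had 8.34, 9.17 and 9.19 CPM in DMSO and 7.299, 7.21 and 6.399 CPM in rotenone. All rotenone libraries were lower, with a log2 fold change of -0.35 (SE 0.099, edgeR adjusted p = 0.132). At day 1 the groups also did not overlap, in the other direction, at 3.94 to 4.04 CPM in DMSO and 4.31 to 4.42 CPM in rotenone (log2 fold change 0.13, edgeR adjusted p = 0.471). These day 1 libraries held 127 to 250 counts of tbb-6, so this gap may lie within counting error. The difference between these effects, day 5 minus day 1, was -0.48 (SE 0.14, edgeR adjusted p = 0.201), and it passed in the fit of only the groups compared, at -0.41 with an adjusted p of 0.0494, where 11.1% of genes were called.

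hsp-60, the matrix chaperonin, showed its widest rotenone difference at day 20, with 140.9 and 181.5 CPM in DMSO and 217 and 231 CPM in rotenone. Both rotenone libraries were above both DMSO libraries, and the log2 fold change of 0.47 had a 95% interval of 0.012 to 0.93 and an edgeR adjusted p of 1. At the same age hsp-6 had 558 and 779 CPM in DMSO and 839 and 879 CPM in rotenone, a log2 fold change of 0.36 with an interval of -0.17 to 0.896. dve-1 was lower in each rotenone library at day 5, at 6.83 to 9.03 against 9.35 to 10.8 CPM, with a log2 fold change of -0.26 (SE 0.11, edgeR adjusted p = 0.472). Over the 4 ages the log2 fold change lay between 0.023 and 0.12 for dnj-10, between -0.060 and 0.090 for atfs-1 and between -0.11 and 0.20 for ubl-5.

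Averaged over the 4 ages, the 95% intervals of the log2 fold change describe the mean rotenone effect in the reported fit. Effects of opposite sign cancel in this mean, as for hsp-6 (-0.34 at day 1 and 0.36 at day 20). The intervals were -0.28 to 0.18 for hsp-6, -0.13 to 0.27 for hsp-60, -0.070 to 0.17 for dnj-10, -0.045 to 0.17 for clpp-1 and -0.065 to 0.16 for atfs-1. For ubl-5 the interval was -0.24 to 0.23, for dve-1 -0.24 to 0.0063, and for tbb-6 -0.22 to -0.0081 (edgeR adjusted p = 0.336). These intervals are not adjusted for the number of genes, and the spread behind them may be technical. Removing the length trend moved the average of hsp-6 from -0.053 to 0.017 and that of dve-1 from -0.118 to -0.025.

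**Figure D2:**
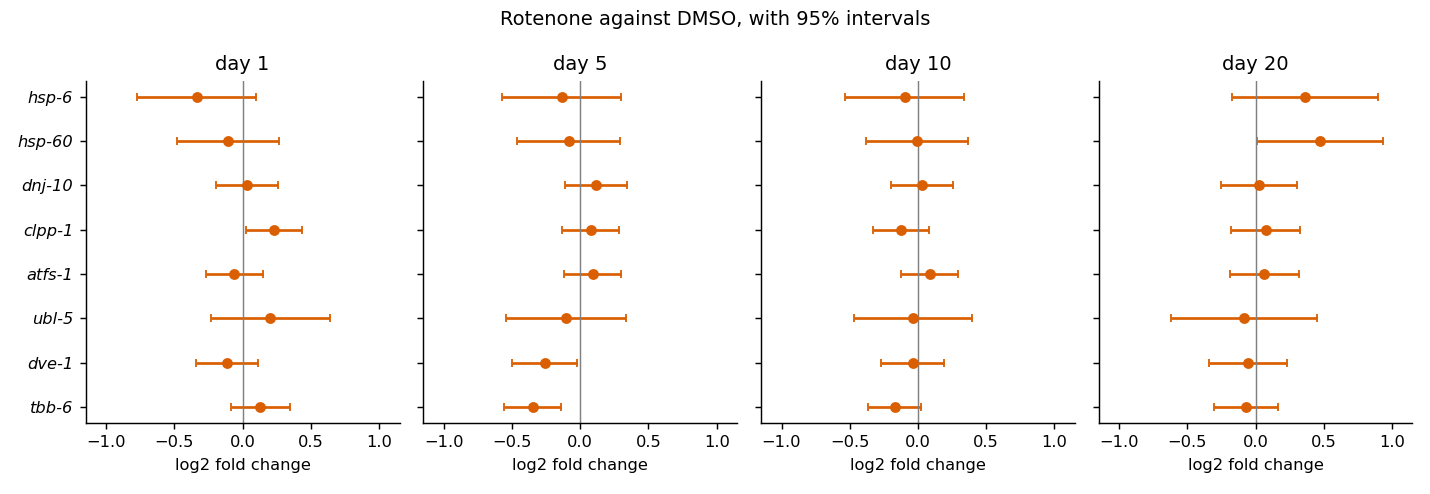
Log2 fold change of rotenone against DMSO (horizontal axis) for each gene (rows) at the 4 ages (panels); points are edgeR estimates and bars their 95% intervals, not adjusted for the number of genes. Most bars cross 0; those that do not are clpp-1 at day 1, dve-1 and tbb-6 at day 5 and hsp-60 at day 20, and none of these passed after adjustment.

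Whether the rotenone effect differed between neighbouring ages was tested as an interaction. edgeR called 0 of 8 members for day 5 minus day 1, day 10 minus day 5 and day 20 minus day 10, DESeq2 called 0, and 1, 0 and 0 members had an unadjusted p under 0.05. The shares of all tested genes called higher and lower were 0.0654% and 0.422%, 0.47% and 0.0416%, and 0% and 0% in these 3 interactions.

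Ages were compared within each treatment, and members moved in different directions. In DMSO between days 1 and 20, tbb-6 rose, hsp-60 and dve-1 fell, and the other 5 did not pass. In rotenone over the same span tbb-6 and hsp-6 rose and hsp-60, dve-1 and clpp-1 fell. In DMSO 1 member was called higher and 2 lower, where 27.8% of all tested genes were called higher and 30.9% lower. In rotenone 2 were higher and 3 lower, where the shares of all genes were 31.4% and 33.4%, so a call between these ages was common across the whole table. The median log2 fold change of the members was -0.14 and -0.18, beside -0.0073 and -0.017 for all genes.

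Calls were also counted step by step. From day 1 to day 5 in DMSO 1 member was called higher and 2 lower, with 24.6% and 31.3% of all genes, and in rotenone 2 and 2, with 27.3% and 35.4%. From day 5 to day 10 the only call in each treatment was tbb-6, higher, where 13.7% and 12.1% of genes were called higher and lower in DMSO and 11.2% and 11.6% in rotenone. From day 10 to day 20 in DMSO 1 member was higher and 2 lower, with 23.3% and 22.3% of genes, and in rotenone 1 member was higher, with 28.2% and 21.2%.

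tbb-6, a divergent beta-tubulin, rose at every step in both treatments. DMSO libraries had 4.04, 3.99 and 3.94 CPM at day 1, 8.34, 9.17 and 9.19 at day 5, 17.4, 20.0 and 18.6 at day 10, and 74.7 and 88.0 at day 20. Rotenone libraries had 4.42, 4.31 and 4.38 CPM at day 1, 7.299, 7.21 and 6.399 at day 5, 15.1, 15.7 and 18.97 at day 10, and 76.4 and 78.6 at day 20. No library of one age overlapped one of another age, in either treatment. The SD of day 1 replicates was 0.0525 CPM in DMSO and 0.056 CPM in rotenone. With 140 to 225 counts in DMSO and 127 to 250 in rotenone at day 1, these SDs may understate the counting error. The log2 steps in DMSO were 1.16 (SE 0.10), 1.07 (SE 0.096) and 2.12 (SE 0.10), and in rotenone 0.68, 1.25 and 2.22, with edgeR adjusted p-values of at most 1.36e-05. From day 1 to day 20 the mean level went up 20.4-fold in DMSO (log2 4.35, SE 0.11, edgeR adjusted p = 1.54e-16) and 17.7-fold in rotenone (log2 4.15, SE 0.11, edgeR adjusted p = 2.62e-16). In order of level, DMSO and rotenone overlapped at day 10 and at day 20, and all other neighbouring groups were separate.

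hsp-60 fell with age. Its DMSO libraries had 580.5, 534 and 595 CPM at day 1, 389.8, 354 and 458.5 at day 5, 190.5, 339.7 and 355 at day 10, and 140.9 and 181.5 at day 20. In rotenone they had 514.5, 515 and 557 CPM at day 1, 387, 352 and 393.5 at day 5, 229.5, 310.5 and 340.6 at day 10, and 217 and 231 at day 20. The day 1 libraries were above all later ones in both treatments. Between days 1 and 20 the level fell 3.54-fold in DMSO (log2 -1.82, SE 0.21, edgeR adjusted p = 4.63e-07) and 2.36-fold in rotenone (log2 -1.24, SE 0.21, edgeR adjusted p = 3.96e-05). The fall from day 1 to day 5 was -0.51 in DMSO (edgeR adjusted p = 0.0217) and -0.49 in rotenone (adjusted p = 0.0244). With 1 library left out the value stayed between -0.62 and -0.43 in DMSO and between -0.52 and -0.44 in rotenone, while the adjusted p crossed the threshold. It no longer passed in DMSO without day 1 replicate 1 (-0.495, adjusted p = 0.0523) or 3 (-0.48, 0.0588), or day 5 replicate 1 (-0.49, 0.0604) or 2 (-0.43, 0.0872). In rotenone the same held without day 1 replicate 1 (-0.49, 0.0527) or 3 (-0.45, 0.0681), or day 5 replicate 2 (-0.44, 0.0781).

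The calls of the later steps of hsp-60 also depended on the libraries and settings used. From day 10 to day 20 in DMSO it fell by 0.87 on the log2 scale (SE 0.21, edgeR adjusted p = 0.00195), and without DMSO day 20 replicate 1 the value was -0.64 (adjusted p = 0.0799) and with only these groups -0.82 (0.0995). From day 5 to day 10 in DMSO the value was -0.44 (adjusted p = 0.0805), which became -0.55 (0.0464) without DMSO day 10 replicate 2 and -0.595 (0.0309) without replicate 3. In rotenone the steps from day 5 to day 10 (-0.36, adjusted p = 0.161) and from day 10 to day 20 (-0.39, adjusted p = 0.116) did not pass. Without DMSO day 10 replicate 1 they passed at -0.35 (0.0274) and -0.38 (0.0177), and without rotenone day 10 replicate 1 the second was -0.54 (0.0453).

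hsp-6 did not follow hsp-60. In DMSO it had 659.6, 570 and 644 CPM at day 1, 692, 643 and 803 at day 5, 359, 777 and 760.4 at day 10, and 558 and 779 at day 20. These ages overlapped, and day 20 against day 1 gave a log2 fold change of 0.099 with a 95% interval of -0.39 to 0.585 (edgeR adjusted p = 0.738). In rotenone it had 493, 479 and 511 CPM at day 1, 653, 585 and 706 at day 5, 464, 625 and 684 at day 10, and 839 and 879 at day 20. Day 20 was above every other rotenone library, and from day 1 the log2 fold change was 0.797 (SE 0.23, edgeR adjusted p = 0.00534). Over the alternatives this value ran from 0.53 to 0.87. The rotenone change minus that in DMSO was 0.70 (SE 0.33, edgeR adjusted p = 0.508), which did not pass. That test was chosen after the values were seen. The step from day 1 to day 5 in rotenone was 0.39 (adjusted p = 0.1101) and that from day 10 to day 20 was 0.54 (adjusted p = 0.0596). Without DMSO day 10 replicate 1 both passed, at 0.40 (0.00752) and 0.55 (0.00214), and without rotenone day 10 replicate 3 the later step was 0.66 (0.0451). In order of level all neighbouring groups overlapped except the highest, rotenone at day 20.

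The ratio of hsp-6 to hsp-60 counts within a library needs no scaling between libraries, and it was looked at after both genes' values were seen, so it is given without a test. It was 1.07 to 1.14 in DMSO at day 1, 1.75 to 1.82 at day 5, 1.89 to 2.29 at day 10 and 3.96 to 4.29 at day 20. In rotenone it was 0.917 to 0.957, 1.66 to 1.79, 2.01 to 2.02 and 3.81 to 3.87. Ages did not overlap within a treatment, and DMSO day 10 replicate 1, which had the lowest CPM of its group for both genes, had a ratio of 1.89, the lowest of its group.

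**Figure D3:**
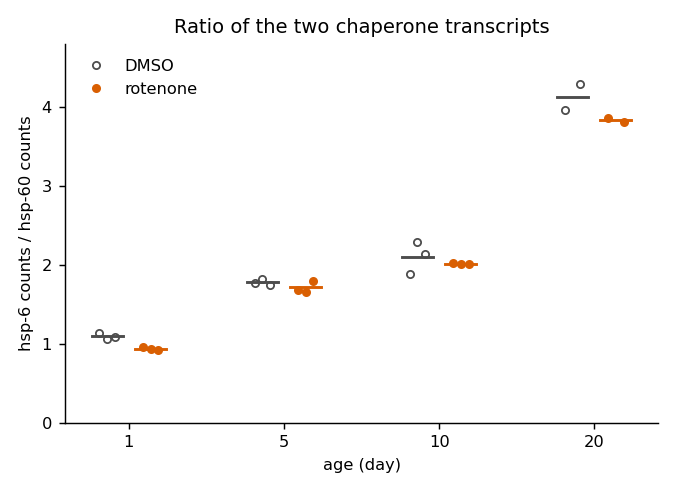
Ratio of hsp-6 to hsp-60 counts in each library (vertical axis, from 0) by age (horizontal axis, equal spacing); open points are DMSO, filled points rotenone, and lines group means. The ratio is near 1 at day 1 and 3.81 to 4.29 at day 20 in both treatments.

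dnj-10, a DNAJ cochaperone of the matrix HSP70, stayed between 64.3 and 89.1 CPM in all 22 libraries and passed in no comparison. Its log2 fold change from day 1 to day 20 was 0.034 in DMSO, with a 95% interval of -0.22 to 0.29, and 0.025 in rotenone, with an interval of -0.23 to 0.28. Leaving out rotenone day 5 replicate 1 gave a call from day 5 to day 10 in rotenone (-0.33, adjusted p = 0.0483), where the full set gave -0.22 (adjusted p = 0.155).

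clpp-1 had 28.8, 32.0 and 30.0 CPM in DMSO at day 1 and 27.9 and 23.5 at day 20, and 34.1, 36.4 and 36.0 CPM in rotenone at day 1 and 27.8 and 26.5 at day 20. Both day 20 groups lay below their day 1 groups. In rotenone it fell by 0.39 on the log2 scale (SE 0.11, edgeR adjusted p = 0.00515), which was -0.31 (adjusted p = 0.0687) without rotenone day 20 replicate 2 and -0.11 (0.183) with the length trend removed. In DMSO the value was -0.23 (adjusted p = 0.0788), which passed without DMSO day 10 replicate 1 (-0.22, 0.0339) and without DMSO day 20 replicate 1 (-0.35, 0.0414). The call in DMSO from day 10 to day 20 (-0.30, adjusted p = 0.0334) was lost without DMSO day 10 replicate 1 (-0.13, 0.257), without DMSO day 20 replicate 2 (-0.12, 0.544), and with RLE size factors, no filter or only these groups (-0.27 to -0.29, 0.0526 to 0.422). From day 1 to day 5 in rotenone it had -0.20 (adjusted p = 0.0818), which passed without DMSO day 10 replicate 1 (-0.19, 0.0396). The rotenone change from day 1 to day 20 minus that in DMSO was -0.15 (SE 0.16, edgeR adjusted p = 0.664). That test was chosen after the values were seen.

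atfs-1, the transcription factor at the centre of the response, ranged from 101 to 148 CPM. Rotenone libraries had 105, 101 and 112 CPM at day 1 and 128, 125 and 148 CPM at day 5, with no overlap. That step was its only call, a rise of 0.34 on the log2 scale (SE 0.099, edgeR adjusted p = 0.00647). DMSO libraries had 110, 102 and 120.0 CPM at day 1 and 123, 112 and 142.4 at day 5, which overlapped (0.19, adjusted p = 0.1195). That DMSO step passed without DMSO day 5 replicate 2 (0.26, adjusted p = 0.0427), and the difference between the treatments' steps was 0.15 (SE 0.14, edgeR adjusted p = 0.684). At day 20 the means were 105 ± 3.67 CPM in DMSO and 110.3 ± 0.415 in rotenone, beside 111 ± 9.1 and 106 ± 5.61 at day 1. From day 10 to day 20 the values were -0.23 in DMSO (adjusted p = 0.0981) and -0.25 in rotenone (adjusted p = 0.0669), and the latter passed without DMSO day 10 replicate 1 (-0.24, 0.0301).

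ubl-5, a ubiquitin-like protein that binds DVE-1, ranged from 16.3 to 33.5 CPM and passed in no comparison of the reported fit. Its DMSO step from day 10 to day 20 was -0.38 (edgeR adjusted p = 0.206), and this step passed with the replicate block (adjusted p = 0.0299). Its groups overlapped at every neighbouring place in their order. The lowest means were at day 20, 19.9 ± 5.10 CPM in DMSO and 18.8 ± 2.52 CPM in rotenone, with log2 fold changes from day 1 of -0.20 (edgeR adjusted p = 0.479) and -0.49 (adjusted p = 0.0755). The latter passed without rotenone day 1 replicate 3 (-0.61, adjusted p = 0.0453). It is the shortest of the 8, with 327 exonic bases, and with the length trend removed its rotenone step from day 1 to day 5 changed from -0.16 (adjusted p = 0.511) to 0.38 (adjusted p = 0.0273).

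dve-1, a homeodomain protein that binds chromatin at chaperone genes, fell early and stayed low. It had 17.1, 17.4 and 19.1 CPM in DMSO at day 1 and 10.8, 9.35 and 9.63 at day 5, and 16.53, 16.7 and 16.3 CPM in rotenone at day 1 and 9.03, 6.83 and 8.84 at day 5. The day 1 libraries were above all others. The step was -0.85 in DMSO (SE 0.11, edgeR adjusted p = 2.56e-06) and -0.9975 in rotenone (SE 0.11, edgeR adjusted p = 3.84e-07). At day 20 it had 9.85 and 11.1 CPM in DMSO and 9.90 and 10.2 CPM in rotenone, and day 20 against day 1 was -0.78 (edgeR adjusted p = 2.78e-05) and -0.71 (adjusted p = 6.58e-05), the latter -1.16 with the length trend removed. The later steps did not pass in either treatment.

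Positions of the 8 genes are given on the genome build WBcel235. hsp-6 lies on chromosome V from 4824124 to 4826760, atfs-1 on V from 14193663 to 14197700 and tbb-6 on V from 12261531 to 12263368. hsp-60 lies on III from 1619742 to 1625803 and dnj-10 on III from 8631165 to 8633565. ubl-5 lies on I from 5607826 to 5608841, dve-1 on X from 427035 to 433812 and clpp-1 on II from 10300714 to 10302842. Counts are sums over the whole gene, and no exonic base of a member was shared with another annotated gene. clpp-1 overlaps mdt-22 on the opposite strand without shared exonic bases.

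Genes around the response were described as lists. With rotenone, 2 genes of all lists passed in any of the 5 rotenone comparisons. Of all tested genes, 0.648%, 0.88%, 1.36% and 0.0654% were called at days 1, 5, 10 and 20, and 2.16% in the average. The count for the lists is to be read beside these shares. tbb-4, a beta-tubulin of ciliated neurons, was lower at day 5 (log2 -1.03, SE 0.17, edgeR adjusted p = 0.00264), at day 10 (-0.64, adjusted p = 0.0305) and in the average (-0.64, adjusted p = 4.92e-04). jmjd-3.1, a histone demethylase required for the response in worms, was lower at day 10 (-0.496, edgeR adjusted p = 0.0402) and in the average (-0.36, adjusted p = 0.00346). Without any 1 of rotenone day 10 replicates 1, 2 or 3 or DMSO day 10 replicates 2 or 3, the day 10 value of jmjd-3.1 no longer passed (-0.50, -0.50, -0.43, -0.38 and -0.44). With the replicate block, which pairs libraries by number, it was -0.48 (adjusted p = 0.0733). It also missed with RLE size factors, no filter, the length trend removed and only these groups (-0.47 to -0.39). That of tbb-4 at day 10 was lost without rotenone day 10 replicate 1 (-0.51) or 3 (-0.61) or DMSO day 10 replicate 2 (-0.58) or 3 (-0.58), and with only these groups (-0.61, adjusted p = 0.631). Without DMSO day 10 replicate 1 the day 10 value of jmjd-3.1 was -0.63. Over all alternatives the average ran from -0.40 to -0.25 for jmjd-3.1 and from -0.69 to -0.59 for tbb-4. The day 5 value of tbb-4 ran from -1.12 to -0.92, with an adjusted p of at most 0.0306 by edgeR or DESeq2. In the other lists the smallest p belonged to R151.7, the TRAP1 homolog, at day 1 (-0.28, adjusted p = 0.2099), lonp-1, the matrix LON protease, at day 1 (-0.53, adjusted p = 0.202), timm-17B.1 in the average (0.13, adjusted p = 0.320), pmk-3 in the average (-0.14, adjusted p = 0.184), hsp-70 at day 20 (0.77, adjusted p = 0.502) and pdi-6 at day 10 (-0.30, adjusted p = 0.148).

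With age, all 4 genes of the PMK-3 kinase pathway were higher at day 20 than at day 1 in both treatments. Across all tested genes 27.8% were called higher and 30.9% lower between these ages in DMSO, and 31.4% and 33.4% in rotenone. Counts of called genes in this list and those below are to be read beside these shares. cebp-1, a bZIP factor downstream of PMK-3, had 4.67 ± 0.665 CPM at day 1 and 67.9 ± 5.17 CPM at day 20 in DMSO, up by 3.87 on the log2 scale (SE 0.196, edgeR adjusted p = 1.55e-12). In rotenone cebp-1 had 4.23 ± 0.519 and 67.7 ± 3.61 CPM, a log2 fold change of 3.996 (edgeR adjusted p = 1.21e-12). The 3 kinases rose less: pmk-3 by 1.05 and 1.08 on the log2 scale, dlk-1 by 0.645 and 0.79, and sek-3 by 0.39 and 0.37 in DMSO and rotenone. With the length trend removed the rotenone value of dlk-1 was 0.37 (adjusted p = 0.00517). The median of the list was 0.85 in DMSO and 0.94 in rotenone. dlk-1 and cebp-1 act in neurons, among other cells, and the neuron marker sums given above rose with age; their part was not tested.

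Of the 5 other beta-tubulins 1 was higher and 2 lower in each treatment. tbb-4 rose by 1.77 and 1.74 on the log2 scale, and mec-7, of touch neurons, fell by 1.39 and 1.16. tbb-1 fell by 0.97 in DMSO and 0.44 in rotenone, and the latter was lost without rotenone day 1 replicate 2 (-0.39) or 3 (-0.43) or rotenone day 20 replicate 1 (-0.46) or 2 (-0.34). Each of these changes was smaller in size than that of tbb-6.

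Among the mitochondrial chaperone partners 1 of 4 fell in DMSO and 2 of 4 in rotenone. Y22D7AL.10, the HSP10 that caps the HSP60 chaperonin, fell by 1.49 (SE 0.14, edgeR adjusted p = 1.44e-08) in DMSO and by 1.54 (SE 0.14, edgeR adjusted p = 8.87e-09) in rotenone. Its level in DMSO was 143 ± 11.6 CPM at day 1 and 50.9 ± 5.74 CPM at day 20. It lies on chromosome III from 1617151 to 1618929, with 812 bases and 0 protein-coding genes between it and hsp-60. dnj-21, a DNAJ protein of the import motor, fell by 0.89 in rotenone, and by 0.49 with the length trend removed.

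Of 12 mitochondrial import genes 9 fell and 1 rose in DMSO and 10 fell and 1 rose in rotenone, with median log2 fold changes of -0.51 and -0.59. In DMSO mppa-1 and mppb-1, subunits of the peptidase that removes targeting sequences, fell by 1.396 and 0.99, tin-9.2 by 0.67 and the receptor tomm-20 by 0.49. In rotenone mppb-1 fell by 0.83, tomm-22 by 1.13, tin-9.2 by 0.71 and tomm-40, the outer membrane pore, by 0.499; with the length trend removed tomm-22 was at -0.74. The row used for tin-9.2 (B0564.1) is named exos-4.1 in the count table, and tin-9.2 is its current name. These counts may therefore be of exos-4.1, and the counts of import genes that fell include this row. The gene that rose, timm-23, is the inner membrane channel (0.59 and 0.54).

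The proteases and prohibitins went both ways, with 2 higher and 3 lower of 8 in DMSO and 3 and 3 in rotenone. phb-2, a prohibitin of the inner membrane, fell by 0.665 and 0.56, and phb-1 fell by 0.48 in DMSO. ymel-1, an inner membrane AAA protease, rose by 0.69 and 0.97. The 2 homologs of the ClpX unfoldase, which pairs with CLPP-1, moved apart: D2030.2 rose by 0.88 and 1.05, and K07A3.3 fell by 1.29 and 2.16.

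Of 13 regulators 2 rose and 3 fell in DMSO and 7 rose and 3 fell in rotenone. The shares of all tested genes called higher and lower were 27.8% and 30.9% in DMSO and 31.4% and 33.4% in rotenone. zip-3, a bZIP factor that restrains ATFS-1 in worms, fell by 2.35 and 2.39, atf-4, a factor of the integrated stress response, by 1.45 and 1.42, and haf-1, a peptide transporter of the inner membrane, by 0.645 and 0.45. skn-1 rose by 0.35 and 0.57. With the length trend removed the rotenone value of skn-1 was 0.18 (adjusted p = 0.0303). The DMSO call of skn-1 was lost with no filter (0.32) and without DMSO day 1 replicate 2 (0.32) or DMSO day 20 replicate 1 (0.35) or 2 (0.39), and the rotenone call of haf-1 was lost without rotenone day 20 replicate 1 (-0.38). The medians of this list were 0.10 in DMSO and 0.47 in rotenone; the difference between treatments was not tested for the list.

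**Figure D4:**
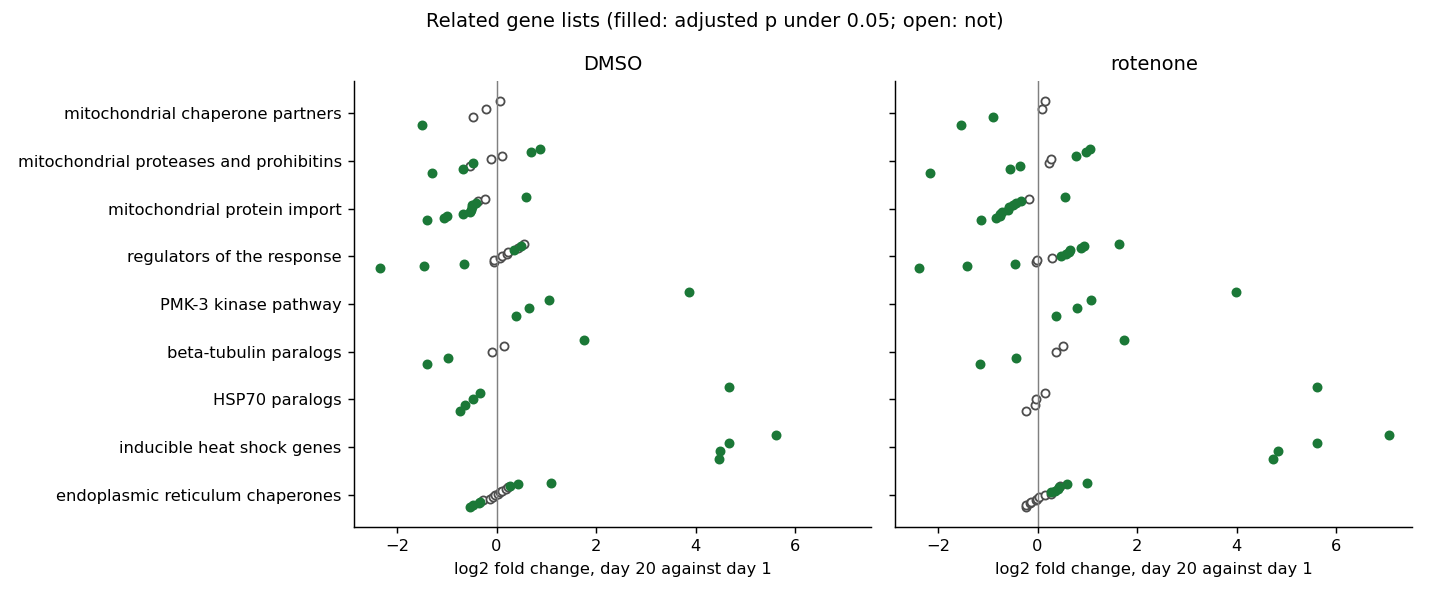
Log2 fold change of day 20 against day 1 (horizontal axis) for each tested gene of the 9 lists (rows) in DMSO (left) and rotenone (right); the heat shock genes shown are those that passed the filter on low counts; filled points passed at an edgeR adjusted p under 0.05 and open points did not, and vertical spread within a row only separates points. All points of the PMK-3 kinase pathway lie right of 0, and all but 1 of the import genes lie left of it. The direction of the heat shock genes was largely set by the filter on low counts.

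Chaperones of other compartments were described in the same way. Of the inducible heat shock genes of the cytosol, 4 of 9 listed passed the filter on low counts, which they could do through the old groups alone, so their direction with age was largely set by the filter and is given as a description. hsp-70 had 0.415 ± 0.194 CPM in DMSO at day 1 and 11.03 ± 1.46 at day 20, up by 4.66 on the log2 scale, and by 5.62 in rotenone. hsp-16.2 rose by 4.48 and 4.72 and hsp-16.41 by 4.5 and 4.83, and reads of these genes may be split with near-identical copies. hsp-16.49 was at 0 in all day 1 libraries and at 0.0168 to 0.345 CPM in DMSO at day 20, so no fold is given, and without DMSO day 1 replicate 2 or DMSO day 20 replicate 2 its DMSO call was lost (adjusted p = 0.0586 and 0.271). Of 16 endoplasmic reticulum chaperones 3 rose and 4 fell in DMSO and 6 rose and 0 fell in rotenone. xbp-1, the transcription factor of the endoplasmic reticulum response, rose by 1.09 and 1.00, and ero-1, an oxidase for disulfide bonds, by 0.43 and 0.43. pdi-2 and dnj-7 fell by 0.53 and 0.35 in DMSO, and dnj-7 was lost without DMSO day 20 replicate 1 (-0.21). In rotenone pdi-3 rose by 0.41 and sel-1 by 0.34, and with the length trend removed the call of sel-1 was lost (0.10, adjusted p = 0.129).

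The HSP70 paralogs of hsp-6 outside mitochondria fell in DMSO, except hsp-70. hsp-110 fell by 0.74, hsp-1, the constitutive cytosolic HSP70, by 0.63, and hsp-4, of the endoplasmic reticulum, by 0.47, so that 4 of 5 tested were lower and 1 higher. Without DMSO day 20 replicate 1 the calls of hsp-110 (-0.55), hsp-1 (-0.50) and hsp-4 (-0.39) were lost, and that of hsp-1 also without DMSO day 1 replicate 1 (-0.61) or 3 (-0.58) or DMSO day 20 replicate 2 (-0.73). In rotenone 1 of 5 was called, hsp-70, higher. In both treatments the direction of hsp-70 with age was largely set by the filter on low counts, as given above.

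The genes whose group means followed a member most closely were sought among 7446 genes with a mean of at least 10 CPM, by Pearson's r of log2 CPM over the 8 groups, which share their libraries. For tbb-6 these were sod-4, an extracellular superoxide dismutase (r = 0.998), vhp-1, a MAP kinase phosphatase (0.997), and T23B3.2 (0.996). vhp-1 had 32.8 CPM in DMSO at day 1 and 221 at day 20. For hsp-60 they were cri-3 (0.991), vha-6, a proton pump subunit of the intestine (0.9897), and phb-2 (0.989). vha-6 is 1 of the intestine markers used above, and it had 256 CPM in DMSO at day 1 and 28.1 at day 20. For hsp-6 the closest were the translation factor gene eif-3.D (0.977), F43D9.3, now sly-1 (0.965), and gck-1 (0.956). These values describe the 8 groups and carry no test.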

How the data were processed

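Whole-animal RNA was sequenced in 22 libraries. The authors deposited a table of whole-number read counts per gene, not normalized, and a table of RPKM, which was not used. TopHat 1.4.1, HTSeq and the build WBcel235 are named, without roles, per the submitters' processing notes. Per the labels' protocols the TruSeq RNA kit was used, which does not mark strand. Counts were tested with edgeR 4.0.16 (R 4.3.3) by its quasi-likelihood test on 8 group means, after TMM scaling and filterByExpr, which kept 16822 of 45461 genes. P-values were adjusted by Benjamini-Hochberg over all tested genes, and adjusted p under 0.05 passed. Standard errors came from the F statistic. Exonic lengths (Ensembl) and current names (RefSeq, 44080 genes matched) are of WBcel235. The fit was run on simulated data; recovery of changed genes fell just under the first pass mark, which was then lowered.

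The alternatives tried were no filter, RLE size factors, a replicate block, DESeq2 1.42.0, only the groups compared, an exonic length trend removed (lowess span 0.3), and each library left out. The 8 genes and the lists were chosen with earlier results of these data known. All 8 are named in every comparison. Of each list, up to 4 called genes with the smallest p are named, or else the smallest p. Outside this rule, timm-23 and the DMSO value of K07A3.3 are given, without values under the alternatives. Deviations of same-numbered libraries at day 10 correlated at 0.43, 0.22 and 0.16, so numbers may pair DMSO with rotenone there. Deviations from a group mean depend on each other, so these correlations are not independent and do not establish pairing. At the other ages not every pair of DMSO with rotenone passed 0.1. Between ages, each number passed 0.1 only for DMSO day 10 with DMSO day 20 (0.30 and 0.28).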

Additional observations from a re-analysis of the deposited data

Results flagged for a closer look

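hsp-6 was lower in all 3 rotenone libraries than in all 3 DMSO libraries at day 1 (log2 fold change -0.34) and higher in both rotenone libraries than in both DMSO libraries at day 20 (0.36). How many of all genes were apart in this way was not counted. The rotenone effect at day 20 minus that at day 1 was 0.70. A test of this difference was chosen after the values were seen: edgeR's quasi-likelihood test gave an SE of 0.33, an unadjusted p of 0.0477 and an adjusted p of 0.508, so it did not pass, and 0.0416% of tested genes passed in this interaction. Summed markers of intestine and germline moved the same way without overlap. Intestine sums were 2695 to 3056 CPM in rotenone and 3303 to 3525 in DMSO at day 1, and 474 to 526 and 405 to 440.2 at day 20. Germline sums were 2693 to 2838 and 3014 to 3173 at day 1, and 2411 to 2565 and 2207 to 2231 at day 20. The other marker lists did not move this way at both ages. Muscle sums overlapped at day 20 (344 to 371.7 in rotenone and 255.5 to 358.6 in DMSO). Neuron and hypodermis sums overlapped at day 1 and at day 20. Sperm sums overlapped at day 1 and were lower in rotenone at day 20 (2.93 to 3.037 against 3.222 to 3.308). The part of any of these sums in the hsp-6 difference was not tested.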

How the results depend on the processing

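Of 2625 values of single genes recomputed under an alternative, 2381 kept their direction and their side of the threshold, 51 lost their call, 50 gained one and 143 changed sign. All but 1 of the sign changes were between values that passed under neither setting; the exception was ubl-5 from day 1 to day 5 in rotenone, with an adjusted p of 0.0273 once the length trend was removed. The cause of these changes was not tested. Counts went down to 179 per library for dve-1 and 127 for tbb-6, and day 20 has 2 libraries per group. Rotenone calls over all genes depended on the settings: day 1 had 109 in the reported fit (63 higher, 46 lower), 5010 with only its groups (2156 and 2854), 2075 with the replicate block (643 and 1432), 1822 with no filter (542 and 1280), 327 with DESeq2 (141 and 186) and 22 to 3082 with 1 library left out. The counts reported, and the ranges over the other settings and with 1 library left out, were 148, 140 to 339 and 46 to 308 at day 5, 229, 0 to 405 and 47 to 2396 at day 10, 11, 3 to 64 and 0 to 63 at day 20, and 364, 334 to 804 and 167 to 2929 in the average. They were 82, 63 to 1681 and 32 to 788 for day 5 minus day 1, 86, 38 to 226 and 27 to 258 for day 10 minus day 5, and 0, 0 to 74 and 0 to 70 for day 20 minus day 10. With only the groups compared, DMSO day 10 against day 5 had 1909 calls (reported 4326) and day 20 against day 10 had 2632 (7674). Without DMSO day 10 replicate 1 the counts were 3082 at day 1, 2396 at day 10 and 2929 in the average. With the length trend removed, calls were 171 higher and 174 lower for rotenone at day 10 (reported 76 and 153), and 2169 and 2965 for DMSO from day 5 to day 10 (reported 2298 and 2028).

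In brackets is the share of all genes called in the same fit. The number of members called was 0 (0.648%) for rotenone at day 1 and 2 (33.3%) with only the groups compared. From day 1 to day 5 in DMSO it was 3 (56.0%), and 5 (62.6%) with the length trend removed. From day 5 to day 10 in DMSO it was 1 (25.7%), and 2 with no filter (15.4%), with the replicate block (27.5%) and with the length trend removed (30.5%). From day 10 to day 20 in DMSO it was 3 (45.6%), and 1 (16.9%) with only the groups compared. From day 5 to day 10 in rotenone it was 1 (22.8%), and 2 (28.2%) with the length trend removed. From day 10 to day 20 in rotenone it was 1 (49.5%), and 2 with RLE (49.9%), 4 with no filter (29.4%), 4 with the replicate block (51.0%), 3 with the length trend removed (54.9%), 5 with only the groups compared (57.2%) and 2 with DESeq2 (49.4%). For the interaction of day 5 minus day 1 it was 0 (0.487%), and 1 (11.1%) with only the groups compared. The replicate numbers were not shown to pair libraries of different ages, with a possible exception in DMSO between day 10 and day 20. There the deviations of same-numbered libraries correlated at 0.30 and 0.28, so numbers may pair these libraries. Such correlations are not independent and do not establish pairing. Members that passed with the block and not without it were hsp-60 in DMSO from day 5 to day 10 (-0.46, adjusted p = 0.0318), and in rotenone from day 10 to day 20 hsp-6 (0.63, 0.0188), atfs-1 (-0.18, 0.0415) and ubl-5 (-0.54, 0.0171). The others were atfs-1 in DMSO from day 1 to day 5 (0.18, 0.0202), ubl-5 in DMSO from day 10 to day 20 (-0.50, 0.0299), clpp-1 in DMSO (-0.26, 0.0436) and ubl-5 in rotenone (-0.62, 0.00585) from day 1 to day 20. No member lost a call with the block, and it changed the number by over 1.5 times in no other comparison. With 1 library left out the number ran from 0 to 1 for rotenone at day 1, from 1 to 2 for day 5 to day 10 in each treatment and from 1 to 4 for day 10 to day 20 in rotenone. In the other 12 comparisons it stayed within 1.5 times the reported number.

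With the exonic length trend removed the log2 value with changed sign was hsp-60 0.0035 and atfs-1 0.013 and ubl-5 -0.063 and dve-1 0.16 for rotenone effect at day 1, hsp-60 0.057 and ubl-5 0.041 and dve-1 0.047 for rotenone effect at day 10, dnj-10 -0.0010 for rotenone effect at day 20, hsp-6 0.017 for rotenone average, clpp-1 0.076 for DMSO day 5 over day 1. In the same setting the log2 value with changed sign was atfs-1 0.011 and ubl-5 -0.32 and clpp-1 -0.049 for DMSO day 10 over day 5, hsp-6 -0.031 and dve-1 -0.010 for DMSO day 20 over day 10, ubl-5 0.38 and clpp-1 0.11 for rotenone day 5 over day 1, atfs-1 0.017 and ubl-5 -0.21 for rotenone day 10 over day 5, dve-1 -0.15 for rotenone day 20 over day 10. In the same setting the log2 value with changed sign was atfs-1 -0.027 for rotenone day 20 over day 1, hsp-60 -0.052 and clpp-1 0.035 for rotenone effect at day 5 minus day 1, atfs-1 0.0053 for rotenone effect at day 10 minus day 5. With RLE size factors the log2 value with changed sign was hsp-60 0.018 for rotenone effect at day 10, atfs-1 0.010 for rotenone effect at day 10 minus day 5. With no filter the log2 value with changed sign was hsp-60 0.052 and ubl-5 0.033 and dve-1 0.023 for rotenone effect at day 10, ubl-5 0.013 for rotenone average, ubl-5 -0.010 for DMSO day 10 over day 5, dnj-10 -0.0010 for DMSO day 20 over day 1, atfs-1 0.0071 for rotenone day 10 over day 5. In the same setting the log2 value with changed sign was atfs-1 0.058 for rotenone effect at day 10 minus day 5. With the replicate block the log2 value with changed sign was hsp-60 0.026 for rotenone effect at day 10. With only the groups compared the log2 value with changed sign was hsp-60 0.023 and ubl-5 0.00071 for rotenone effect at day 10, dnj-10 -0.012 for DMSO day 5 over day 1, atfs-1 0.018 for rotenone day 10 over day 5, atfs-1 0.038 for rotenone effect at day 10 minus day 5. With DESeq2 the log2 value with changed sign was hsp-60 0.018 for rotenone effect at day 10, atfs-1 0.010 for rotenone effect at day 10 minus day 5.

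With 1 library left out, log2 values that changed sign had these ranges. For rotenone effect at day 1 dnj-10 -0.030 to 0.086, atfs-1 -0.12 to 0.0023, and for rotenone effect at day 5 ubl-5 -0.25 to 0.012, hsp-60 -0.17 to 0.023, and for rotenone effect at day 10 ubl-5 -0.16 to 0.20, clpp-1 -0.19 to 0.021, hsp-6 -0.35 to 0.10, hsp-60 -0.22 to 0.19, dnj-10 -0.020 to 0.14, dve-1 -0.11 to 0.017. For rotenone effect at day 20 dnj-10 -0.082 to 0.11, ubl-5 -0.33 to 0.20, dve-1 -0.15 to 0.025, clpp-1 -0.046 to 0.20, tbb-6 -0.19 to 0.048, and for rotenone average ubl-5 -0.062 to 0.069, hsp-6 -0.12 to 0.014, and for DMSO day 5 over day 1 dnj-10 -0.056 to 0.11. For DMSO day 10 over day 5 atfs-1 -0.10 to 0.076, ubl-5 -0.20 to 0.15, hsp-6 -0.35 to 0.11, clpp-1 -0.011 to 0.18, and for DMSO day 20 over day 10 hsp-6 -0.16 to 0.36, and for DMSO day 20 over day 1 dnj-10 -0.028 to 0.11, hsp-6 -0.15 to 0.34, ubl-5 -0.48 to 0.043. For rotenone day 5 over day 1 ubl-5 -0.28 to 0.014, and for rotenone day 10 over day 5 dve-1 -0.015 to 0.18, atfs-1 -0.10 to 0.053, ubl-5 -0.0079 to 0.25, hsp-6 -0.25 to 0.043, and for rotenone day 20 over day 1 dnj-10 -0.030 to 0.16. For rotenone effect at day 5 minus day 1 hsp-60 -0.060 to 0.13, and for rotenone effect at day 10 minus day 5 atfs-1 -0.10 to 0.075, ubl-5 -0.058 to 0.30, hsp-6 -0.23 to 0.23, hsp-60 -0.14 to 0.27, dnj-10 -0.19 to 0.010, and for rotenone effect at day 20 minus day 10 dve-1 -0.16 to 0.052, dnj-10 -0.16 to 0.042, ubl-5 -0.34 to 0.18, tbb-6 -0.070 to 0.21, atfs-1 -0.11 to 0.051.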
